A study of Mus musculus with 46 samples.

Results

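The contact domains of mouse liver were compared between 2 diets through one list of domains per diet. The LD (lipid-rich diet) list held 5912 domains and the CD (carbohydrate-rich diet) list 5776, so 11688 domains entered in all. A domain was matched when both its start and its end lay within 10 kb of those of a domain in the other list, and 3652 domains of each list were matched. The livers came from male C57BL/6 mice that had reached the facility at 5 weeks of age and then ate for 20 weeks a diet with 60% of its calories from lipid (LD) or 70% from carbohydrate (CD). The labels name no altered allele. Mice on both diets were also injected with glucose, and later with insulin, for tolerance tests near the end of feeding. Whole liver was used, so values are averages over hepatocytes and the other cells of the organ. Each domain list pooled 2 Hi-C libraries per diet, so neither the domains nor their scores have a replicate, and no difference between the lists carries a test. The libraries of expression were 5 per diet, and those of the histone mark H3K27ac were 3 per diet. Positions are on mm9, counted from 1.

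A contact domain is a stretch of chromosome whose DNA meets itself more often than it meets its flanks. Its borders are commonly bound by CTCF, a zinc finger protein that halts the cohesin ring as it extrudes a loop of chromatin, and they limit which enhancers meet which promoters. The separation score given with every domain averages, over several window sizes, how frequent contacts across a position are relative to the genome, so a more negative score marks a stronger border. The score belonged to the start of its domain: where both lists shared only a start, scores of the 2 lists had Pearson's r = 0.986 (1402 domains), and where they shared only an end r = 0.721 (1401 domains). These coefficients run across domains of the same pooled libraries and are descriptive. The border at a start also bounds the domain before it, but scores are set here beside the genes of the domain that starts there.

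Sequences at borders that only one diet's list held are shown first, because they are where the 2 lists disagree. The 14 borders inside the 12 divided domains described here were searched, and the 5 runs shown first were taken among those whose nearest match to the CTCF core motif lay within 10 kb. Each run is that match, with the 13 bases of the match in capitals and 14 bases on either side, read 5′ to 3′ on the strand of the match from the mm9 genome. Both strands were searched. At the border inside the Taldo1 domain, found on LD alone, the match at chr7:148580911-148580951 (minus strand) lay in an intron of Taldo1.
Taldo1 border: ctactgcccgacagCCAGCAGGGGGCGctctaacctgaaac
In the domain of Xbp1, which LD divided at 2 borders, one match at chr11:5623999-5624039 (minus strand) lay in an intron of Urgcp and the other at chr11:5853327-5853367 (minus strand) lay between genes.
First Xbp1 border: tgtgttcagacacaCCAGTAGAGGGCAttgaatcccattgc
Second Xbp1 border: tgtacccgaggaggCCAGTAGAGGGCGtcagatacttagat
The match nearest the LD border of the C4b domain, at chr17:34763750-34763790 (plus strand), overlapped coding sequence of Ppt2.
C4b domain border: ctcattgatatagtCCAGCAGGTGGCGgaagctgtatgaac
At a border found on CD alone, the match at chr8:73149162-73149202 (plus strand) in the Gdf15 domain lay between genes.
Gdf15 domain border: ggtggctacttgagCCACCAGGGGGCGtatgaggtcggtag
In the order shown the matches lay -9.07, 9.02, -6.65, 8.77 and 9.18 kb from their borders, with a negative distance before the border. Of the inner borders not shown here, that at chr7:51180000, divided on LD, had a match closer by, 1.56 kb after it. The other inner border of the same domain had its nearest match at -218 kb. In further domains divided on LD the nearest match lay at -73.8 and -23.1 kb. At the remaining borders of domains divided on CD it lay at 64.5, 42.6, -139, 31.4 and 122 kb. A match is a description of letters and does not show that CTCF was bound.

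The nearest matches of 3 borders shared more than the motif. The first Xbp1 match and those nearest the CD borders of the Mvp domain (chr7:134194460-134194500, minus strand, in an intron of Zg16) and the Ten1 domain (chr11:115932578-115932618, plus strand, in an intron of Unc13d) were alike over their whole length.
Mvp domain border: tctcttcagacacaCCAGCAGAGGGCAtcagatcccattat
Ten1 domain border: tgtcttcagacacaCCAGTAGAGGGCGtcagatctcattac
The last 2 of these had 36 of 41 bases in common, and the first shared 34 with the Ten1 match and 33 with the Mvp match. The 6 bases GACACA directly before the match, which these 3 share, preceded 2.69% of the 9431 matches in windows over the whole genome and 0.945% of the 952 matches within 10 kb of the starts of matched domains. The Mvp and Ten1 matches lay 64.5 and 42.6 kb from their borders, outside the window used below.

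Windows reaching 10 kb to either side of a border held the CTCF motif more often at shared borders than at borders of one list. Of 3650 starts of matched domains, 22.5% had a match, against 6.16% of the 3639 midpoints of the same domains and 6.75% of the 127911 windows of 20 kb that cover the genome. Of the 266 borders that divided a CD domain on LD, 13.9% had a match (37 borders), and of the 180 that divided an LD domain on CD, 12.2% did (22 borders). The strength of a shared border made little difference to this share, which was 23.5% in the lowest of 4 equal groups of matched domains by score and 23.0% in the highest. GC content differed only slightly between the kinds of window: it was 44.3% around starts of matched domains, 42.5% and 43.2% around the borders inside LD-divided and CD-divided domains, and 43.7% at midpoints. Cutting sites of HindIII, the enzyme of the Hi-C protocol, numbered 6.01, 6.23, 6.03 and 6.15 per window in the same order. The start of a coding gene lay in 30.5%, 22.9%, 32.2% and 20.5% of these windows. The part of base composition, cutting sites and gene starts in the difference in motif share was not tested.

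**Figure D1:**
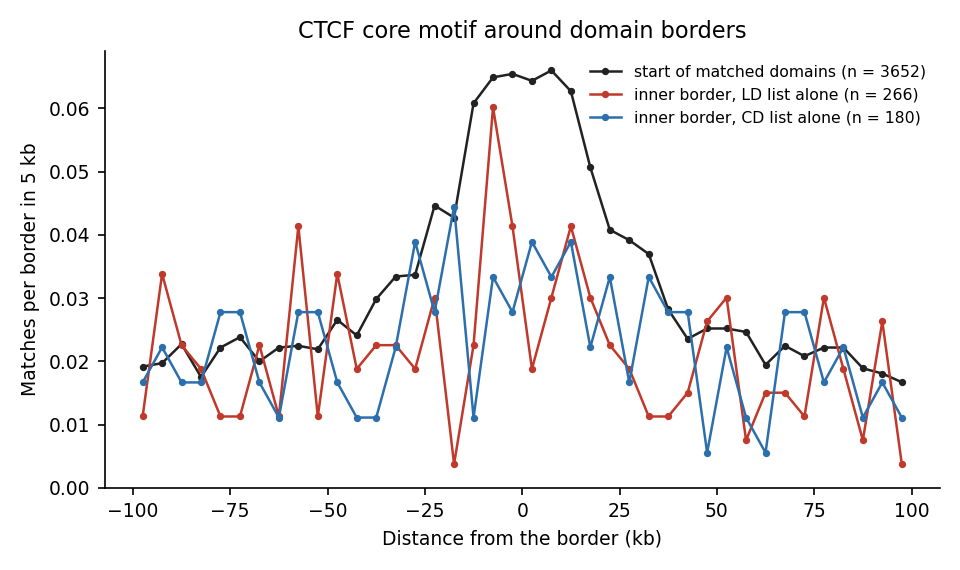
Matches to the CTCF core motif per border in steps of 5 kb (y axis) by distance from the border in kb (x axis), for starts of matched domains (3652), borders inside domains divided on LD (266) and borders inside domains divided on CD (180). Matched starts rise to 0.0660 matches per step near the border, and the lines of the 2 smaller groups are uneven.

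Most domains of each list had a match in the other. Matched domains were 61.8% of the LD list and 63.2% of the CD list and spanned 1313 Mb of the 2559 Mb that the LD list covered, and 2415 of them had identical ends. Of the matched starts, 2955 were at the same position and 697 had moved by at most 10 kb. Widening the tolerance to 20 kb added domains just outside it and gave 4380 matches. Taken border by border, 64.5% of the 5933 LD borders stood at the same position in the CD list, 79.9% had a CD border within 10 kb and 91.9% within 40 kb. A median of 30 kb separated the borders without a counterpart from the nearest border of the other list. Borders without a counterpart within 10 kb were somewhat weaker, with a median score of -0.240 on LD (1184 borders) against -0.285 for those with one (4728 borders), and -0.220 against -0.268 on CD.

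Domain sizes hardly differed. The median was 280 kb in both lists, with an interquartile range of 200 to 430.0 kb, and the mean was 433 kb on LD and 443 kb on CD. The largest domains measured 10660 kb on LD and 11380 kb on CD. Among domains without a match, 675 LD domains shared only their start with a CD domain, 670 shared only their end, and 248 shared neither.

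**Figure D2:**
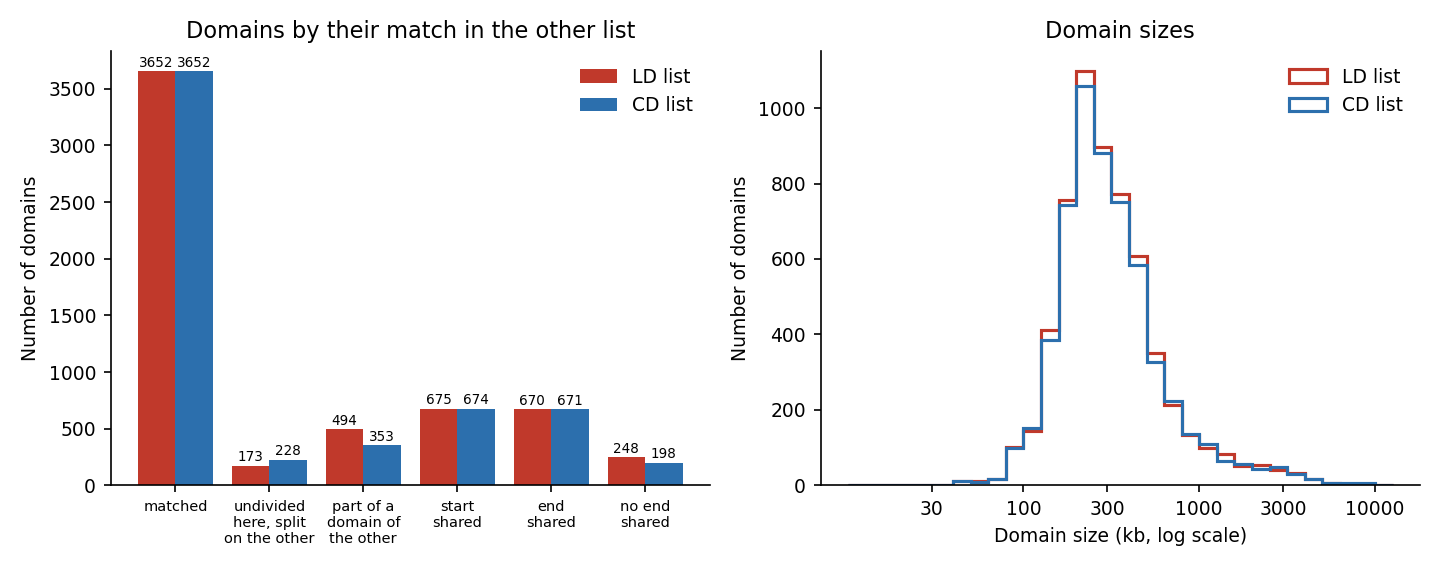
Left, number of domains (y axis) by how they relate to the other diet's list (x axis), LD in red and CD in blue. Right, number of domains (y axis) by size in kb on a log scale (x axis). The 3652 matched domains are the tallest pair of bars, and the 2 size distributions run together.

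Shared borders scored slightly lower, that is stronger, on LD. Across the 3652 matched domains the median score was -0.273 on LD and -0.250 on CD, and the median of the difference (LD minus CD) was -0.0233 with an SD of 0.0597 between domains. LD was lower in 2431 of them (66.6%), and the median difference was negative on each chromosome. The shift was largest at strong borders: from the lowest to the highest of 4 equal groups by mean score, the median difference went from -0.0403 over -0.0231 and -0.0118 to -0.00463, and LD was lower in 85.9%, 69.0%, 59.1% and 52.2% of domains. The scores of the 2 lists followed each other closely (Pearson's r = 0.986, slope of LD on CD 1.02). Each list was corrected with cut-offs of its own, and the part of the correction or of the depth of the maps in this shift was not tested.

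**Figure D3:**
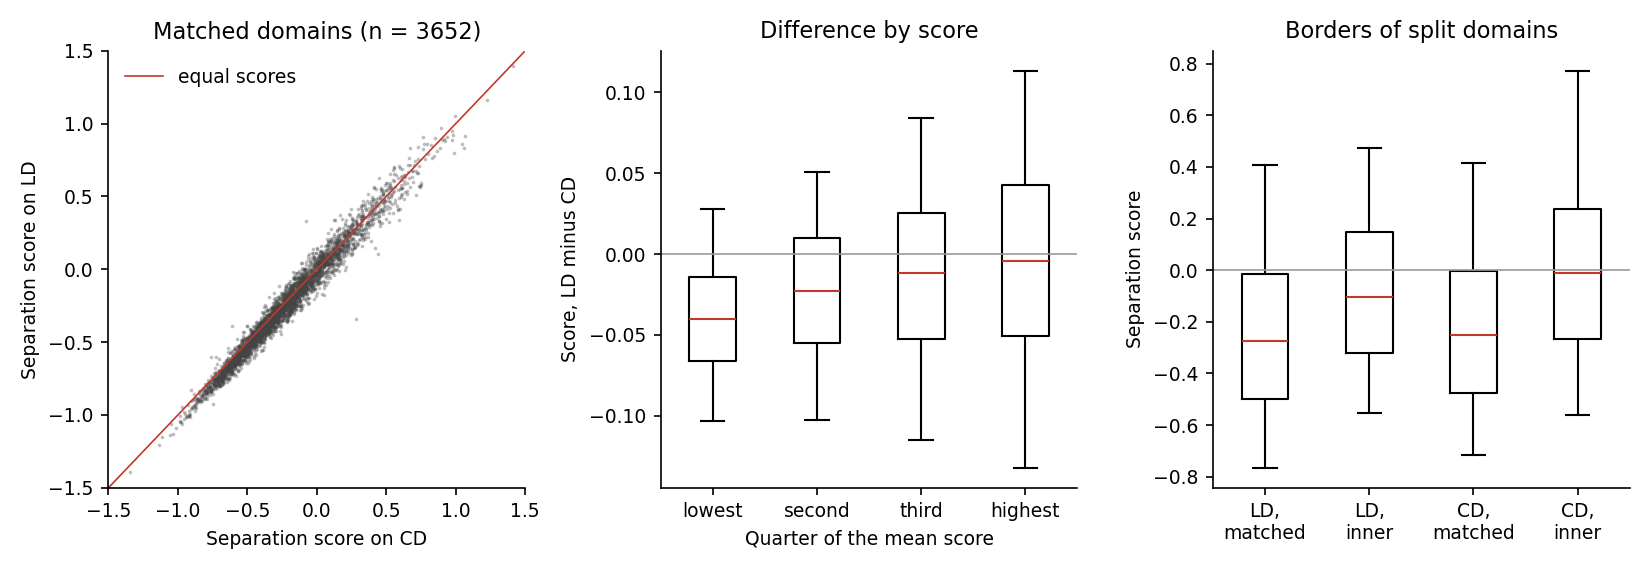
Left, separation score of each matched domain on LD (y axis) against CD (x axis) with the line of equal scores. Middle, the score difference LD minus CD (y axis) in 4 equal groups by mean score (x axis). Right, scores (y axis) of matched starts and of borders inside divided domains. Boxes span the interquartile range with the median in red, and whiskers reach the outer percentiles (5 and 95). The difference lies furthest below 0 in the lowest group, with a median of -0.0403, and inner borders score above matched starts.

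The 5 matched domains whose score rose most on LD, meaning a weaker border there, were taken among domains with at least 1 gene expressed well enough to test. The largest rise was at chr14:44630001-45570000, from -0.0775 on CD to 0.332 on LD, a domain of 32 annotated genes of which only Ear2, a ribonuclease of eosinophils, was testable. Levels are given as CPM, the reads of a gene or sum relative to the reads of all tested features of its library, after TMM scaling. Genes and domain sums were scaled separately. Ear2 measured 0.731, 2.06, 0.900, 1.24 and 0.727 CPM in the 5 LD mice and 0.574, 0.339, 0.335, 0 and 0.145 in the 5 CD mice. All LD mice lay above all CD mice, as groups did not overlap for 18.5% of tested genes, with a log2 fold change of 2.01 ± 0.53 (SE; edgeR quasi-likelihood test, adjusted p = 0.0131). Here and below, a gene or a domain sum is called when the Benjamini-Hochberg adjusted p over all tested features is below 0.05 and the fold change exceeds 1.2. By that rule 1859 of 13494 genes (13.8%) rose on LD and 1498 (11.1%) fell, 24.9% in either direction.

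At chr13:24400001-24570000 the score was -0.609 on CD and -0.390 on LD. Cmah, which makes the sialic acid Neu5Gc, was the one gene tested there. It measured 237, 277, 334, 272 and 245 CPM on CD and 206, 131, 163, 130 and 177 CPM on LD, without overlap (log2 fold change -0.76 ± 0.13, edgeR adjusted p = 0.00133). H3K27ac peaks covered 58.6%, 62.2% and 66.8% of the domain in the CD libraries and 47.5%, 35.2% and 30.2% in the LD libraries. At chr1:192910001-193130000 the score went from 0.132 to 0.339, and Atf3, a stress-induced transcription factor, rose by 1.94 ± 0.24 on the log2 scale (edgeR adjusted p = 0.000158). Atf3 measured 3.82, 7.80, 8.16, 8.76 and 8.64 CPM on LD and 2.33, 1.88, 2.63, 1.59 and 1.25 on CD, so LD replicate 1 was low for its diet and still above all CD mice. The remaining 2 were chr1:182500001-182800000, where none of 4 tested genes was called (H3f3a, a variant histone gene, took 66.5% of its counts), and chr6:129020001-129210000, where Clec2d, a ligand of natural killer receptors, fell (log2 fold change -0.54 ± 0.13) together with 2310001H17Rik (-0.84).

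Among the 5 domains whose score fell most on LD, of which 4 are given here, 2 held cytochrome P450 genes. Cyp2d26 lies in chr15:82510001-82635000, whose score was 0.280 on CD and -0.341 on LD, the largest difference in either direction (-0.620). Its sum of counts was 1016, 859, 1018, 1194 and 802 CPM on LD and 823, 742, 853, 702 and 814 on CD, which overlap. The sum was called (0.31 on the log2 scale, edgeR adjusted p = 0.0306), but leaving out any of CD2, CD4, LD1, LD3 and LD4 ended the call, with adjusted p between 0.0536 and 0.0767. Cyp2d26 itself (0.35, edgeR adjusted p = 0.0255) lost its call without CD2, CD4, LD3 or LD4 (adjusted p 0.0514 to 0.0674). The scored border also ends the domain chr15:82090001-82510000, where 1 of 10 tested genes rose and 2 fell. At chr5:146790001-146950000 the score fell from 0.443 to 0.105, and both tested genes rose, Cyp3a59 by 1.59 and Cyp3a25 by 0.36 on the log2 scale. Cyp3a25 took 96.7% of that domain's counts. Genes of both families share near-identical copies, and the counting options of the study set none for multiply mapped reads, which featureCounts by default leaves out, so levels of single members are uncertain.

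Other domains with a lower score on LD held genes that fell. In chr5:125760001-125870000 (0.420 on CD, 0.149 on LD) the one gene tested was Scarb1, the receptor that takes up HDL cholesterol. Scarb1 measured 87.2, 81.9, 94.5, 110 and 98.6 CPM on LD and 103, 106, 128, 132 and 107 on CD, which overlap (log2 fold change -0.29 ± 0.10, edgeR adjusted p = 0.0377). Of the 10 fits without one library, 6 made no call (those without CD3, CD4, LD1, LD2, LD3 or LD5, adjusted p 0.0511 to 0.108). The match to the CTCF motif nearest this border was at chr5:125752062-125752102 (minus strand, between genes), 7.92 kb before it.
Scarb1 border: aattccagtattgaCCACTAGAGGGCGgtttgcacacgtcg
In chr15:97020001-97500000 (0.0526 on CD, -0.173 on LD) Pced1b fell (-0.67) and Amigo2, with 82.0% of the counts, stood at 0.01.
Pced1b and Amigo2 border: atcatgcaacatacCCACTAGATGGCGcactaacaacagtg
That match, at chr15:97018450-97018490 (minus strand, between genes), lay 1.53 kb before the border. At the other borders with extreme score changes given here the nearest match lay further off. It was at -10.7 kb for the Cmah domain, -10.4 kb for Atf3, -68.2 kb for Ear2 and -148 kb for H3f3a. For the Clec2d, Cyp3a25 and Cyp2d26 domains it was at 185, 352 and 358 kb. Among the 9 domains with extreme score changes given here, then, called genes went both ways in both groups.

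More domains were divided on LD than on CD. A domain counted as divided when 2 or more consecutive domains of the other list tiled it with outer ends within 10 kb. LD divided 228 CD domains, 196 of them into 2, 28 into 3 and 4 into more, at 266 inner borders. CD divided 173 LD domains, 166 into 2 and 7 into 3, at 180 inner borders. Divided domains were long, with a median of 635 kb for those divided on LD and 500 kb for those divided on CD. The inner borders were weak. Their median score was -0.102 on LD and -0.00928 on CD, and 38.7% and 49.4% of them scored above 0, whereas in the whole lists 76.0% of LD and 75.2% of CD scores were below 0.

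Contacts called from promoter capture Hi-C (PCHi-C), which enriches fragments with promoters, crossed these inner borders about as often on either diet. Inside domains divided on LD, 37.6% of 6469 LD interactions and 36.1% of 6402 CD interactions crossed an inner border. Inside domains divided on CD, 32.0% of 4458 LD interactions and 30.5% of 4317 CD interactions did. Interactions of a diet also come from 2 libraries pooled, so no test was possible.

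Among the 6 domains divided on LD with the most tested genes, at most 3 genes of any were called, with one exception. That exception was chr13:21795001-22160000, part of the Hist1 cluster of replication-dependent histone genes, which LD divided after 105 kb at a border with score -0.121. There 13 of 16 tested genes rose and none fell, beside 13.8% and 11.1% of all genes. Hist1h1b, a linker histone, rose by 2.14 ± 0.19 on the log2 scale, Hist1h3h by 2.04 ± 0.35 and Hist1h2bl by 1.64 ± 0.27. All 10 genes tested in the first part, chr13:21795001-21900000, rose. The sum over that part was 30.4, 41.4, 28.9, 32.6 and 28.3 CPM on LD and 14.5, 10.4, 9.89, 11.4 and 8.55 on CD. The diets did not overlap (log2 fold change 1.57 ± 0.14, edgeR adjusted p = 2.16e-05), and H3K27ac peaks covered 18.5%, 22.3% and 21.5% of it on LD and 11.8%, 11.4% and 9.90% on CD. Histone genes are near-copies of one another, so the levels of single members are uncertain.

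In chr7:148405001-148670000, divided on LD at the Taldo1 border, 2 of 17 tested genes rose and 1 fell. Taldo1, of the pentose phosphate pathway, measured 160, 166, 183, 172 and 157 CPM on LD and 142, 120, 111.8, 114 and 116 on CD, higher in all LD mice (log2 fold change 0.47 ± 0.08). Cd151, a tetraspanin, rose by 0.34, and Cdhr5, a protocadherin of microvilli, stood at -0.48 and was lower on LD. In chr11:5375001-6170000, 1 of 15 tested genes rose and 1 fell, Xbp1, a transcription factor of the unfolded protein response (-0.52 ± 0.12). In chr5:137380001-137920000, 2 of 14 tested genes rose, among them Ap1s1, of the clathrin adaptor AP-1, by 0.38, and 1 fell. In chr17:34690001-34980000, 1 of 14 was called, Cyp21a1, a steroid hydroxylase, at 1.01 ± 0.29, whereas C4b, which took 89.6% of the counts, was not. In chr7:50460001-51505000, 1 of 13 was called.

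Among domains divided on CD, chr7:133880001-134380000 had the highest inner score of the CD list, 1.44, which is a weak border. It held 22 tested genes of which 4 rose, among them Kif22, a mitotic kinesin, by 1.47 ± 0.21 and Mvp, the major vault protein, by 0.59 ± 0.10. In chr8:73040001-73420000, 8 of 22 rose and 3 fell. Gdf15, a stress-induced hormone, measured 2.90, 11.02, 20.2, 14.5 and 14.3 CPM on LD and 4.27, 3.11, 1.48, 2.29 and 4.45 on CD, where LD replicate 1 lay within the CD range (log2 fold change 2.01 ± 0.49, edgeR adjusted p = 0.0137). Isyna1, which makes inositol phosphate, rose by 0.74. In chr11:115770001-116170000, 4 of 18 rose and 1 fell. Ten1 rose by 0.60, and Fbf1 by 0.94 ± 0.26, a call lost without LD2 (0.87, edgeR adjusted p = 0.0525).

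In chr17:56085001-56410000, 3 of 17 tested genes rose and 1 fell. Plin4, a lipid droplet protein, measured 26.2, 35.7, 45.4, 58.6 and 74.6 CPM on LD against 2.65, 2.25, 6.56, 4.51 and 4.69 on CD. Plin4 was the gene with the largest change there, 3.54 ± 0.38 on the log2 scale, with Chaf1a, a chaperone of newly made histones, at 1.48 ± 0.22. In chr9:43790001-44220000, 2 of 16 rose, among them Mcam by 0.68 ± 0.14, and 3 fell. In chr9:50250001-50585000 none of 17 was called.

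Gene density differed with the size and the score of domains and hardly between the lists. Both lists held 14.4 annotated genes per Mb, counted by start site (36823 genes in LD domains). In 4 equal groups by score, LD domains held 10.7 genes per Mb in the lowest and 21.3 in the highest group, and CD domains 11 and 21.1. Domains under 200 kb held 25.6 genes per Mb, those of 200 to 400 kb 20.9, those of 400 to 1000 kb 12.1, and larger ones 6.95 (LD list). Across the 5912 LD domains Spearman's rho was -0.385 between size and density, 0.203 between score and density, and -0.318 between size and score. Between matched and divided domains, the kinds with a larger median size held fewer genes per Mb. Matched LD domains had a median of 260 kb and 15.9 genes per Mb, CD domains divided on LD 635 kb and 10.7, and LD domains divided on CD 500 kb and 13.5. The LD pieces of a divided CD domain had a median of 280 kb and 10.7 genes per Mb, and the CD pieces of a divided LD domain 230.0 kb and 13.5. Pieces cover the same ground as the domains they divide, so this near-equal density was fixed in advance and says nothing on size.

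Of the 5 matched domains with the highest density, among those with at least 10 tested genes, 3 lay in the major histocompatibility region of chromosome 17. The densest, chr17:34030001-34175000, held 152 genes per Mb, and 1 of its 17 tested genes was called, the ribosomal protein gene Rps18, which was lower on LD (-0.47 ± 0.08). In chr17:34980001-35130000 the complement gene C2 was the 1 of 11 called (-0.41 ± 0.07). In chr19:8790001-9050000, 2 of 28 rose, Rom1 the most with 0.87, and 6 fell. In chr11:120485001-120660000, 2 of 10 fell, among them Sirt7, a deacetylase (-0.38 ± 0.08). In chr17:36050001-36420000, 2 of 13 rose.

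How a domain related to the other list made little difference to how many of its genes responded to diet. Of 8573 genes tested in matched LD domains 24.8% were called, against 24.9% of all genes. The share was 24.1% in LD domains divided on CD, 25.1% in LD pieces of a divided CD domain, and 28.4% in the 248 LD domains that shared neither end (of 395 genes, 11.9% up and 16.5% down). In CD domains that shared neither end, 8.61% of 395 genes rose and 15.9% fell. These domains are few and partly overlap between the lists. The score difference was set beside expression as well. In 5 equal groups of the matched domains from the most negative to the most positive LD minus CD score, 26.8%, 24.0%, 23.6%, 24.8% and 25.1% of genes were called. The share that rose was 12.9%, 13.7%, 13.4%, 14.4% and 14.7%, and the share that fell 13.9%, 10.2%, 10.2%, 10.3% and 10.3%, so falls outnumbered rises in the first group alone. The median log2 fold change per group went from -0.04 to 0.02. Across 2891 matched domains, Pearson's r between the score difference and the log2 fold change of the domain's summed counts was 0.059 (Spearman's rho 0.068).

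Coverage by H3K27ac, a mark of active promoters and enhancers, followed expression more closely. The counts of all genes in an LD domain were summed and tested as 1 feature. Of 4495 domain sums 596 (13.3%) rose on LD and 510 (11.3%) fell. Peaks covered 7.45 ± 0.235% of the length of domains that rose in LD libraries and 5.97 ± 0.228% in CD libraries (SD, n = 3 each), a ratio of 1.25. In domains that fell the values were 10.1 ± 0.603% and 10.8 ± 0.164%, a ratio of 0.935, and in those not called 8.15 ± 0.273% and 7.42 ± 0.172%, a ratio of 1.10. The ratio over all LD domains was 1.09. Peaks were called in each library on its own, so covered length also depends on that library's depth, which the peak files do not hold. Across the 4495 domains, Pearson's r between the difference in coverage and the log2 fold change was 0.287 (rho 0.358), a description across domains of the same libraries.

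Taken over all distances, neighbouring genes inside a domain responded in the same direction more often than neighbours with a border between them. Within classes of distance this held at 50 to 100 kb alone. Of 592 pairs of neighbouring called genes inside an LD domain 422 (71.3%) had the same direction, against 152 of 245 (62.0%) across a border. Drawing directions independently from all called genes gives 50.6%. Pairs inside were closer together, with a median of 32.4 kb between starts over all neighbours against 140.0 kb. Among pairs under 10 kb apart the share was 81.5% inside (119 pairs), with only 2 pairs across a border, both of the same direction. Among pairs 10 to 50 kb apart it was 74.0% inside (242 pairs) and 84.4% across (32 pairs), and at 50 to 100 kb it was 71.3% (129) and 53.7% (54). At 100 to 200 kb it was 53.2% (79) and 58.1% (74), and at 200 to 500 kb 52.2% (23) and 61.0% (59). Without pairs whose symbols share a stem, as members of a gene family do, the overall shares were 66.4% and 60.7%. Log2 fold changes of neighbours had r = 0.220 inside (8921 pairs) and 0.0860 across (3456 pairs), but 0.121 and 0.0433 without pairs that share a stem. By distance, r was 0.362 inside and 0.221 across under 10 kb (2013 and 49 pairs), 0.189 and 0.196 at 10 to 50 kb, 0.194 and 0.0415 at 50 to 100 kb, 0.220 and 0.159 at 100 to 200 kb, and 0.104 and -0.0112 at 200 to 500 kb. Genes are not independent replicates, and these values are a description.

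**Figure D4:**
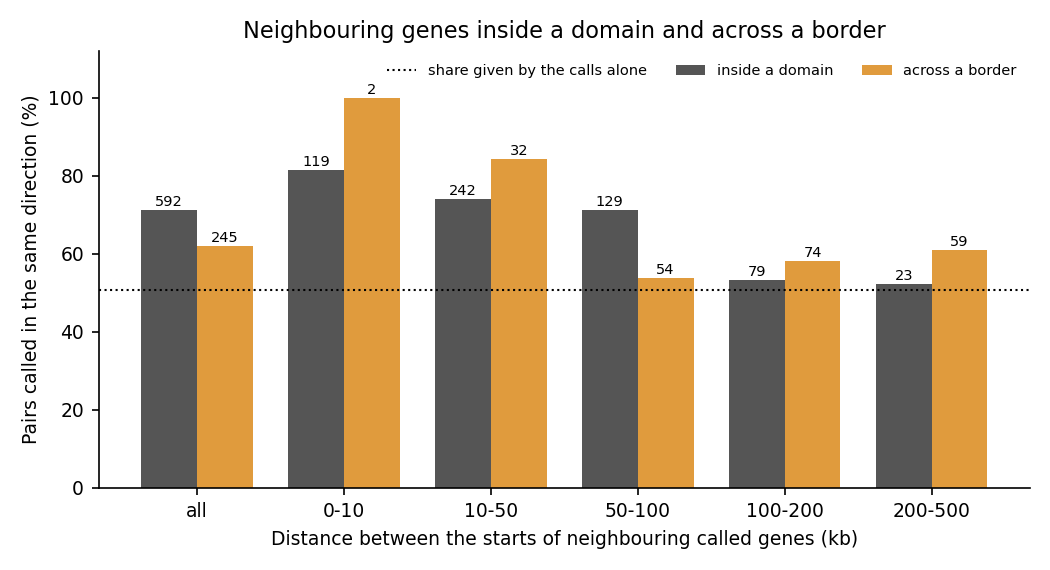
Share of neighbouring called genes that changed in the same direction (y axis, %) by distance between their start sites in kb (x axis), inside an LD domain in grey and across a border in orange, with the number of pairs above each bar. The dotted line is the share given by the calls alone, 50.6%. Over all pairs the bar inside is taller, whereas at 10 to 50 kb and beyond 100 kb the bar across is taller.

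In some domains all called genes moved one way. Of 232 LD domains with at least 3 called genes, 59 had only genes that rose, 30 only genes that fell and 143 both (38.4% of one direction). Counting 1 gene per symbol stem in a domain left 196 domains, 44 with only rises and 22 with only falls. The number with only falls dropped to 19 without CD4 and to 14 without LD3. The 10 domains with the most called genes of one direction were chosen by that count, and the counts that follow describe them.

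Histones led the domains that rose. In chr13:23620001-23850000, a further part of the Hist1 cluster, 15 of 26 tested genes rose and none fell. Hist1h3g had a log2 fold change of 2.63 ± 0.32, Hist1h2bh 2.08 ± 0.20 and Hist1h3b 1.82 ± 0.27, from means of 0.159, 0.568 and 0.884 CPM on CD. The sum over the domain was not called (0.18 ± 0.09, edgeR adjusted p = 0.135), and it overlapped between diets at 585 to 729 CPM on LD and 507 to 689.5 on CD. Hist1h2bc, which stood at 0.25 and was not called, took 19.8% of the counts.

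The acute phase cluster at chr7:53890001-54180000 held 7 genes that rose among 10 tested. Serum amyloid Saa2 rose by 3.32 ± 0.24, Saa1 by 2.86 ± 0.19 and Saa3 by 1.75 ± 0.31. Saa1 measured 115, 93.5, 90.0, 92.8 and 85.7 CPM on LD and 12.9, 13.2, 18.7, 7.59 and 13.2 on CD, far apart. Saa1 and Saa2 are near-identical, so the level of either is uncertain. Ldha, lactate dehydrogenase, took 72.7% of the domain's counts, and the sum was 1326 to 1621 CPM on LD and 879 to 1031 on CD (log2 fold change 0.63 ± 0.07, edgeR adjusted p = 6.00e-05). The interferon-inducible Ifi200 domain at chr1:175350001-176080000 had 5 of 10 up, with Mnda at 0.86, Pyhin1 at 0.79 and Ifi204 at 0.68. Its sum overlapped between diets, 54.6 to 93.2 CPM on LD and 48.6 to 61.6 on CD (0.44 ± 0.12, edgeR adjusted p = 0.0170).

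In chr18:67240001-67610000, 5 of 8 tested genes rose. Cidea, a lipid droplet protein, measured 22.2, 23.9, 41.0, 27.8 and 22.7 CPM on LD and 0.478, 0.705, 0.922, 0.381 and 0.320 on CD (log2 fold change 5.58 ± 0.27, edgeR adjusted p = 2.57e-06). Tubb6, a tubulin, rose by 1.82 ± 0.24. The score of this domain was -0.827 on LD and -0.761 on CD, among the strong ones, and H3K27ac peaks covered 10.6%, 11% and 11.4% of it on LD and 6.76%, 6.43% and 7.03% on CD. Smaller responses came from chr17:25860001-26255000 with 5 of 22 up, Chtf18 the most with 1.4 ± 0.32 and Rhbdl1 with 0.74, and from chr8:87370001-87600000 with 5 of 16 up, Syce2 with 0.84 and Asna1 with 0.31. In both the summed counts were not called. In chr3:15250001-16020000 all 4 tested genes rose, among them Sirpb1b by 1.46 and Sirpb1a by 2.24 ± 0.72, genes of signal-regulatory receptors of myeloid cells. Sirpb1a lost its call without CD1, CD2, CD3, CD4 or LD2 (adjusted p 0.0540 to 0.0864), and LD2, at 4.96 CPM, lay far above the other LD mice, which were at 0.433 to 0.923. Without LD2 its log2 fold change was 1.16.

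Of the domains that fell, chr17:32865001-33130000 had 5 of 6 tested genes down. Cyp4f14, a hydroxylase of leukotrienes and fatty acids, fell (log2 fold change -1.38 ± 0.20), as did the zinc finger genes Zfp870 (-0.54) and Zfp871 (-0.53). The sum was 277, 244, 204, 196 and 167 CPM on LD and 429, 429, 463, 431 and 413 on CD, without overlap (-0.99 ± 0.11, edgeR adjusted p = 9.71e-05). The major urinary protein domain, chr4:59940001-61520000, spread more. Its sum was 2920.3, 1764, 1057, 516 and 669 CPM on LD and 2938, 2523, 3275, 3613 and 4401 on CD, so LD1 lay inside the CD range. The sum was called (-1.27 ± 0.42, edgeR adjusted p = 0.0384), but of the 10 fits without one library 9 made no call (adjusted p 0.0505 to 0.0938), all but the one without LD1. Of 16 tested Mup genes 4 fell, among them Mup2 (-2.27), Mup15 (-1.52) and Mup16 (-1.51), and Mup15 and Mup16 lost their calls in 6 and 5 of those fits (adjusted p up to 0.0780). Mup7, with 44.3% of the counts, stood at -2.14 and was not called (edgeR adjusted p = 0.124), but without LD1 it was called at -3.03 (adjusted p = 0.0406). Without LD1 Mup15 stood at -2.11. Mup genes are near-identical, and single members are uncertain.

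**Figure D5:**
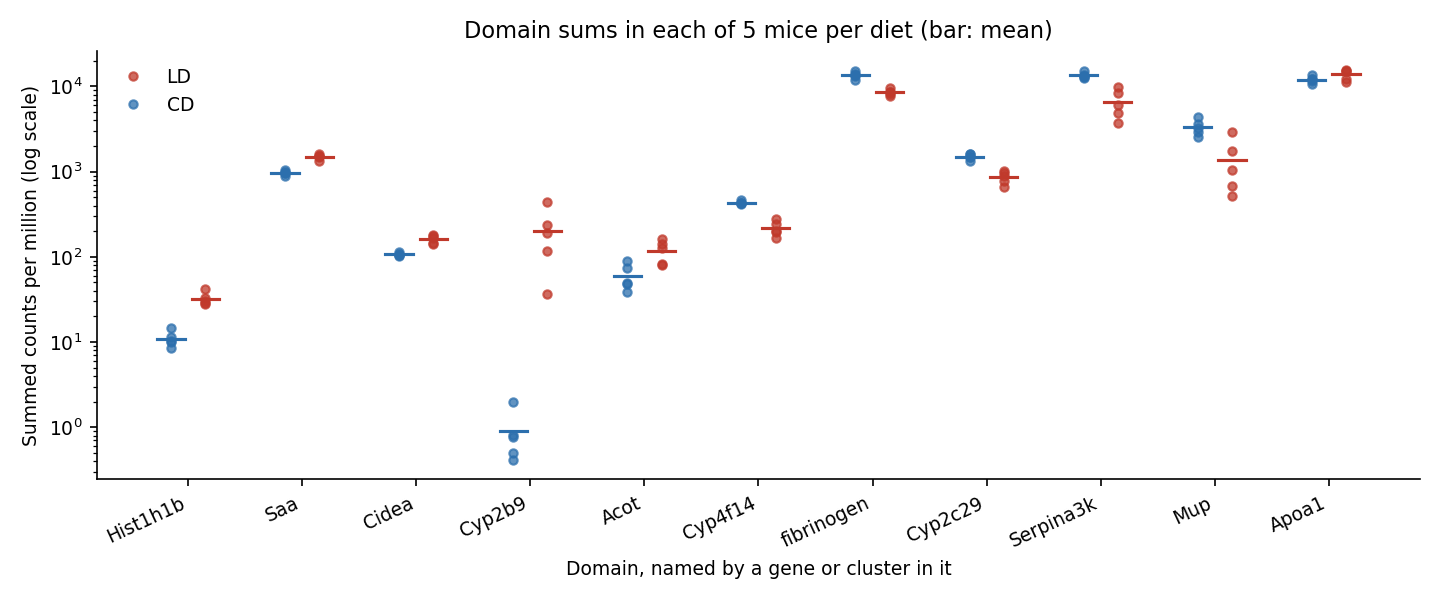
Summed CPM of the genes of 11 LD domains (y axis, log scale) in each of the 5 mice per diet, LD in red and CD in blue, with a bar at the mean of a diet. The domains are named by a gene or cluster they hold. The Cyp2b9 domain differs most, and LD and CD points overlap in the Mup, Acot and Apoa1 domains.

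Of 23 gene clusters, 8 lay in a single LD domain and the same number in a single CD domain, 21 lay in as many domains on LD as on CD, and 2 in more CD domains. One of these was Cyp2c, a cluster of steroid and drug hydroxylases. On LD 10 of its members shared chr19:39030001-40045000, which CD divided into 3 domains of 500, 340.0 and 175 kb at weak borders (scores 0.618 and 0.682). The summed counts of all 3 CD pieces fell, by 0.85 (edgeR adjusted p = 0.00479), 0.71 (0.000591) and 4.26 (6.45e-05), and differences between pieces were not tested. In the third CD piece Cyp2c40 and Cyp2c69 fell, by 4.0 and 5.15 on the log2 scale. In the second, Cyp2c38 and Cyp2c39 rose by 1.03 and 1.29 while Cyp2c67 fell by 1.31. In the first, Cyp2c29 fell by 0.87. Cyp2c genes are similar in sequence, so the levels of single members are uncertain. Cyp2c40 measured 0.649, 0.0755, 0.310, 0.607 and 0.615 CPM on LD and 10.7, 6.24, 11.2, 4.89 and 3.0 on CD. Summed over the LD domain the counts were 665 to 1022 CPM on LD and 1322 to 1615 on CD (-0.80 ± 0.11, edgeR adjusted p = 0.000290). Cyp2c70, in the next domain, fell by 1.48 ± 0.14. The other cluster was Ugt2b, of glucuronosyltransferases, where CD divided chr5:87240001-87580000 at a border of score 1.03. Ugt2b1 fell there by 0.83, and Ugt2b38, in another domain, by 2.98.

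The Cyp2b and Cyp2a genes, of steroid and drug oxidation, showed the largest rise of any domain described here. The sum over chr7:26640001-26990000 was 116, 36.8, 239, 436 and 189 CPM on LD and 0.775, 0.497, 1.99, 0.415 and 0.822 on CD (log2 fold change 7.80 ± 0.81, edgeR adjusted p = 0.000220). The domain was matched, with scores of -0.314 on LD and -0.339 on CD. Cyp2b9 gave 98.1% of its counts. Cyp2b13 had 583 counts on LD and 2 on CD. These genes are similar in sequence too, so single members are uncertain. In the next domain, chr7:26990001-27225000, Cyp2a4 rose (4.94 ± 0.88), with a sum of 3.34 to 38.6 CPM on LD and 0.499 to 0.981 on CD. A domain further on, chr7:27520001-27920000, was not called as a sum (0.21 ± 0.10, edgeR adjusted p = 0.136), although Cyp2a22 in it rose by 3.83 ± 0.68, and without LD2 the sum was called (0.28, adjusted p = 0.0391). Of the 4 domains that hold this cluster, then, 2 rose as sums, 1 was not called and 1 had no testable sum.

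In the Acot domain, of acyl-CoA thioesterases, chr12:85300001-85480000, 3 of 5 tested members rose, Acot2 by 1.80 ± 0.31, Acot6 by 1.39 and Acot4 by 0.77, and the sum rose from 59.7 ± 20.7 to 118 ± 35.8 CPM (SD, n = 5 each; edgeR adjusted p = 0.0159) with overlapping mice. The Cyp4a genes lay in 2 matched domains. Cyp4a12a and its domain chr4:114660001-115015000 fell (-1.25 and -1.21), with the sum at 36.2 to 75.1 CPM on LD and 101 to 139.9 on CD. In the adjoining chr4:115015001-115390000, Cyp4a12b fell by 3.63. Cyp4a14 there stood at 1.27 and was not called (edgeR adjusted p = 0.105), with CD3 at 371 CPM above the other CD mice. Without CD3 it was called at 1.93 (adjusted p = 0.00393), and so was the domain's sum (0.96, adjusted p = 0.00771). Fads2, a fatty acid desaturase, rose by 0.64.

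The fibrinogen domain, chr3:82670001-82910000, summed to 8497, 8635, 8151, 9459.5 and 7658 CPM on LD and 14992, 14121, 11839, 13644 and 13225 on CD (-0.68 ± 0.09, edgeR adjusted p = 0.000197). Its subunit genes Fga, Fgb and Fgg fell by 0.62, 0.76 and 0.71. Its score was -0.437 on LD and -0.344 on CD. In the Serpina clusters, of protease inhibitors, 3 of 15 tested genes rose and 7 fell, Serpina3k by 1.19 ± 0.27 and Serpina1c by 0.86 ± 0.19, and the borders differed between lists while the number of domains, 4, did not. In the Apoa1 domain, chr9:45585001-46140000, Apoa4 rose by 1.70 ± 0.38, Apoa1 stood at -0.20 and was not called, and neither was the sum (0.20 ± 0.11, edgeR adjusted p = 0.163). None of 6 members of the Apoe cluster was called. Apoe stood at 0.28 (edgeR adjusted p = 0.0509) and was called without LD5 (0.32, adjusted p = 0.0287). Of 7 Gstm genes, glutathione transferases, 4 rose and 1 fell, Gstm3 by 2.23 ± 0.52 and Gstm7 by 0.35 downward.

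Genes that build and hold domains were called in both directions. Of 18 tested genes for cohesin, its regulators and border proteins, 2 rose and 5 fell, beside 13.8% and 11.1% of all genes. Ctcf stood at -0.04 ± 0.06 and was not called, with 33.1 to 38.4 CPM on LD and 34.1 to 39.0 on CD. Among the core subunits of cohesin, Smc3 fell by 0.31 ± 0.08 and Stag2 by 0.43 ± 0.12, while Smc1a (0.01), Rad21 (-0.24) and Stag1 (-0.12) were not called. Nipbl, which loads cohesin, fell by 0.47 ± 0.13, and its partner Mau2 stood at -0.20. Pds5b, which helps to release or lock cohesin, fell by 0.41 ± 0.11, and its relative Pds5a stood at -0.21. Esco2 and Cdca5, which hold sister chromatids together after replication, rose by 1.27 ± 0.28 and 1.86 ± 0.43. Esco1 (-0.18), the deacetylase Hdac8 (0.06), and the DNA-binding Zfp143 (-0.22), Maz (-0.09) and the looping cofactor Ldb1 (-0.24) were not called, whereas Yy1 fell by 0.30. The Smc3 call was lost without LD4 (-0.25) and the Yy1 call without CD4 or LD4 (-0.25 and -0.26), because the fold change dropped under 1.2. Rad21, Mau2, Pds5a and Ldb1 had adjusted p of 0.0209, 0.0271, 0.0232 and 0.0372 (edgeR) and missed the call on that fold alone, which Rad21 and Ldb1 passed in 3 and 4 of those fits. Of 15 genes of condensin and the nuclear lamina, 7 rose, among them Ncapg by 1.83, Top2a by 1.76 and Smc2 by 0.91, none fell, and the median over the list was 0.20.

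Named pathways of the diet response, on lists chosen with earlier results of these data known, went as follows. Of 12 genes of fatty acid synthesis 9 fell, among them Mlxipl (-1.06 ± 0.09), Acaca (-0.98 ± 0.11) and Fasn (-0.94 ± 0.17), and none rose. Of 19 genes of fatty acid oxidation 11 rose, Acaa1b by 0.97 ± 0.17, Hadh by 0.68 and Cpt1a by 0.59, and none fell. The members of each list were spread over many domains: the 12 synthesis genes over 12 LD domains and the 19 oxidation genes over 16. Of 13 transcription factors of hepatocytes 1 rose, Nr1i3 by 0.67 ± 0.16, and 3 fell, among them Foxa3 (-0.51) and Nr5a2 (-0.31). The median over this list was -0.26. Over all tested genes 13.8% rose and 11.1% fell, so the count for these factors is near the background.

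Markers of other cells are given beside the 13.8% of all genes that rose. Of 7 stellate cell genes 4 rose, Col1a1 by 1.6 ± 0.23 and Col3a1 by 1.44 ± 0.16, and the summed level of the list was 622 to 852 CPM on LD and 423 to 504 on CD. Of 8 macrophage genes 1 rose, Cd68 by 0.96 ± 0.17 (sum 498 to 1276 CPM on LD, 403 to 790.2 on CD), of 6 endothelial genes 1 rose, Lyve1 by 0.90 (398 to 557 and 440.3 to 547), and of 7 lymphocyte genes 1 rose (5.28 to 12 and 5.31 to 7.19). Of 6 hepatocyte genes 2 fell, and their sum was the highest of these lists, at no less than 82144 CPM in any mouse. In bulk tissue more cells of a type and more RNA per cell cannot be told apart. S100a8 of neutrophils, in a matched domain, stood at 26.4 CPM in LD2 and at 1.43 to 2.18 in the other LD mice (log2 fold change 3.67 ± 1.13, edgeR adjusted p = 0.0406). Without LD2 it was 1.65 (edgeR adjusted p = 0.000647). The S100a8 call was lost in the 5 fits without a CD mouse (adjusted p up to 0.0921), and S100a4 in the same domain rose by 1.89 ± 0.26. Of 5 adipocyte markers only Cidea and Cfd were testable, and they rose by 5.58 and 5.44 (Cfd by 6.03 without CD3). Adipoq had 2 counts over all LD mice and 7 over all CD mice, and Plin1 and Lep had none. The part of other cells in Cidea and Cfd and in the Ifi204, Sirpb1a and S100a8 domains was not tested.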

How the data were processed

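Liver Hi-C (2 libraries per diet, pooled), PCHi-C (2), H3K27ac ChIP-seq (3) and RNA-seq (5) were used. The authors deposited 1 domain list per diet, made with HiCUP and HiCExplorer on mm9 from contact matrices in 10-kb bins, with positions and a separation score for every domain, and PCHi-C interactions with a CHiCAGO score. H3K27ac peaks were deposited per library (SICER, as positions). RNA read counts per gene were deposited as raw counts from STAR 2.5 and featureCounts 1.5.0-p1 on RefSeq mm9. The domain files hold no Hi-C depth, and the depth that the study gives was not used here. The RNA libraries held 31707963 to 39012699 counts, and all lists, members and genes were chosen with earlier results of these data known.

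Domains were matched within 10 kb at both ends. Genes were assigned by start site, with gene models of NCBIM37 (the same assembly as mm9). Counts were tested with edgeR 4.0.16 (R 4.3.3; filterByExpr, TMM, robust quasi-likelihood fit, two-sided), for genes and for sums over LD domains, called at a Benjamini-Hochberg adjusted p below 0.05 and a fold change above 1.2. DESeq2 1.42.0, DESeq2 size factors, no filter, leaving out each library, CD domains, other tolerances and a replicate block were alternatives. On simulated data with 200 genes changed by a factor of 2 among 13540, 100% were recovered with 11 false calls. The changed genes were drawn from well-counted genes only, and all genes were given the same relative spread between mice. Recovery of genes with few counts or a wide spread between mice was therefore not tested. H3K27ac coverage is the percent of a domain's length under peaks. The CTCF core motif (13 bases) was searched on both strands of mm9. The mice are separate animals, so p-values measure the spread between mice. Replicate numbers did not pair the samples.

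Domains named in the text were the 5 matched domains with the largest rise and the 5 with the largest fall in score, the 6 divided on each diet with the most tested genes, the 10 with the most called genes of one direction, the 5 densest, and those of fixed gene clusters. Up to 3 called genes with the largest change were named per domain. Some genes and the results that need them are not reported here.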

Additional observations from a re-analysis of the deposited data

Results flagged for a closer look

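In 312 groups of 5 mice, each the levels of 1 gene or domain sum named here in 1 diet, 19 held a mouse whose gap to its nearest neighbour passed Dixon's critical value of 0.71 of the range. Chance alone passes about 1 group in 20. They were uneven by mouse: 6 in CD3, 5 each in LD1 and LD2, and 1 each in CD1, CD2 and CD5.

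In CD3 the high values were in genes of cytochromes P450. Cyp2b9 measured 1.87 CPM there, and its domain 1.99. Cyp2b13 measured 0.0559 CPM against 0 in the other CD mice, Cyp2a22 3.94, Cyp4a14 371, and the Cyp2a5 domain 1533. For Cyp2b9, Cyp2b13 and Cyp2a22 these values remained below all LD mice. In LD2 they were in genes of blood and immune cells, S100a8 (26.4 CPM), Sirpb1a (4.96), the sum of its domain (11.2) and Cd68 (23.5), and in Hist1h2bh (3.10). In LD1, Atf3 (3.82) and the sum of its domain (4.34) and Syce2 (0.920) were low, and Saa1 (115) and Zfp871 (67.3) were high. The others were Taldo1 in CD1 (142), the Chtf18 domain in CD2 (608) and Zfp143 in CD5 (9.40).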

How the results depend on the processing

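Requiring identical ends left 2415 matched domains (40.8% of LD and 41.8% of CD domains) and 108 divided on CD. The excess of same-direction pairs inside over across a border, 9.24 percentage points, was 4.05 for genes whose whole body lay in the domain, 5.69 without pairs sharing a symbol stem, 4.31 when overlapping genes were left out too (chosen after seeing the data) and 5.73 to 11.5 on leaving out a mouse, lowest without LD2. By distance, also chosen after seeing the data, it was -10.4, 17.6, -4.94 and -8.84 points at 10 to 50, 50 to 100, 100 to 200 and 200 to 500 kb, for which the cause was not tested. Domains with one direction numbered 232 up and 141 down at 2 or more called genes and 18 and 8 at 4 or more (thresholds chosen after seeing the data), and those with falls only 14 to 32 on leaving out a mouse. The score difference, gene density and counts of calls kept their direction and stayed within 1.5 times. DESeq2 called 1980 genes up and 1652 down. Same-numbered LD and CD mice did not deviate together (r from -0.078 to 0.191, and 1 of 5 matched its own number best), and a replicate block gave 1818 genes up and 1355 down and 585 and 464 domain sums. Of 125 named genes under 1750 refits, 1688 kept their call, 46 lost it (13 genes), 12 gained one (5 genes) and 4 changed sign: Smc1a (-0.0104, -0.00481 and -0.0217, with -0.0217 to 0.0390 on leaving out a mouse) and Hdac8 (-0.0269, with -0.0269 to 0.126), neither called. Of 434 refits of 31 domain sums, 23 lost the call (3 sums) and 3 gained one. All domain comparisons rest on 1 pooled map per diet.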
